A study of Mus musculus with 27 samples.

Results

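The genes described here encode 9 proteins that move or receive cargo on its way to the light-sensing outer segment of the photoreceptor. They were chosen by name for their roles: the lipid-binding carriers Unc119 and Pde6d, the small GTPases Arl3 and Rab28, the connecting cilium proteins Rpgr, Rpgrip1 and Cep290, the chaperone Aipl1, and Tulp1, a tubby family protein. Each of the 9 has a single entry among the 38168 features listed for mouse retina. Whole retina of C57BL/6J mice, an inbred strain for which the labels name no transgene, engineered allele or treatment, was profiled by RNA-seq in 27 libraries at 7 ages. There were 3 libraries at embryonic day 14 (E14), 3 at E17, 4 at postnatal day 1 (P1), 3 at P6, 4 at P15, 4 at P28 and 6 at P60. Values are cpm, the reads of a gene scaled to the same total in every library.

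By the study's methods, libraries were mostly pools of retinas, libraries up to P1 were of mixed sexes and later ones of males. At P60 some libraries were pools and some came from single mice, and which is which is not given in the sources used here. The labels give 3 retinas for every library, whereas the study's methods describe other and mostly larger numbers, so how many retinas a library stands for is not settled here. Age and sex therefore cannot be told apart in the step from P1 to P6 or in a comparison of mature with embryonic retina, which bears on Rpgr, an X-linked gene. Library totals ran from 7077781 to 11332323 reads, so that 1 read was worth 0.0882 to 0.141 cpm.

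Photoreceptors build the outer segment from a modified cilium. Proteins made in the inner segment reach it through the connecting cilium, a narrow bridge that also acts as a gate. Many of them carry a lipid anchor and would stick to membranes on the way. The carrier UNC119 takes up proteins with an acyl (myristoyl) anchor, such as the transducin alpha subunits, and PDE6D takes up proteins with a prenyl anchor, such as the cGMP phosphodiesterase (PDE6) catalytic subunits. The GTPase ARL3 in its active form makes both carriers let go of their cargo. Inherited defects in several of these genes cause retinal degeneration.

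The whole retinas carried the markers of the cell types that each age should hold. The summed level of 4 rod markers (Nrl, Nr2e3, Gnat1, Sag) ran from 11.9 to 17.5 cpm in the 6 embryonic libraries and from 6297 to 9237 cpm in the 14 libraries of P15, P28 and P60 (mature retina). That of 5 cone markers ran from 4.90 to 31.3 cpm in embryonic and from 294 to 620 cpm in mature libraries, and that of 7 progenitor markers from 5043 to 6166 cpm and from 139 to 207 cpm. All 4 rod and all 5 cone markers were higher and all 7 progenitor markers lower in mature retina (limma, adjusted p under 0.05). Of 7 markers of the retinal pigment epithelium (RPE), 6 were tested and 4 were higher in mature retina, with sums of 2.82 to 7.40 cpm in embryonic and 13.4 to 65.6 cpm in mature libraries. Summed lens markers (4 of 7 listed) were at 3.88 to 5.79 cpm in embryonic and 2.94 to 6.87 cpm in mature libraries. Blood markers (5 of 6 listed) were at 12.5 to 20.8 and 19.9 to 43.3 cpm. Among the blood markers 2 were higher in mature retina and none lower. The rod, cone, RPE and blood sums moved with the results below, and their part in them was not tested. In whole tissue, fewer cells of a type and less RNA per cell cannot be told apart.

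The question was when in retinal development the trafficking genes reach their mature level, and whether they do so together. All 9 varied over the ages (limma F test, adjusted p under 0.05), as did 83.0% of all 31760 features tested. All 9 were higher in mature than in embryonic retina (limma on log2(cpm + 1), adjusted p under 0.05), against 35.0% of all features. For 8 of them the rise was at least 2-fold, against 14.9% of all features. Every mature library was above every embryonic library for all 9, a separation that 17.4% of all features showed in this direction. The median log2 fold change of the 9 genes was 1.79, and that of all features was -0.06.

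**Figure D1:**
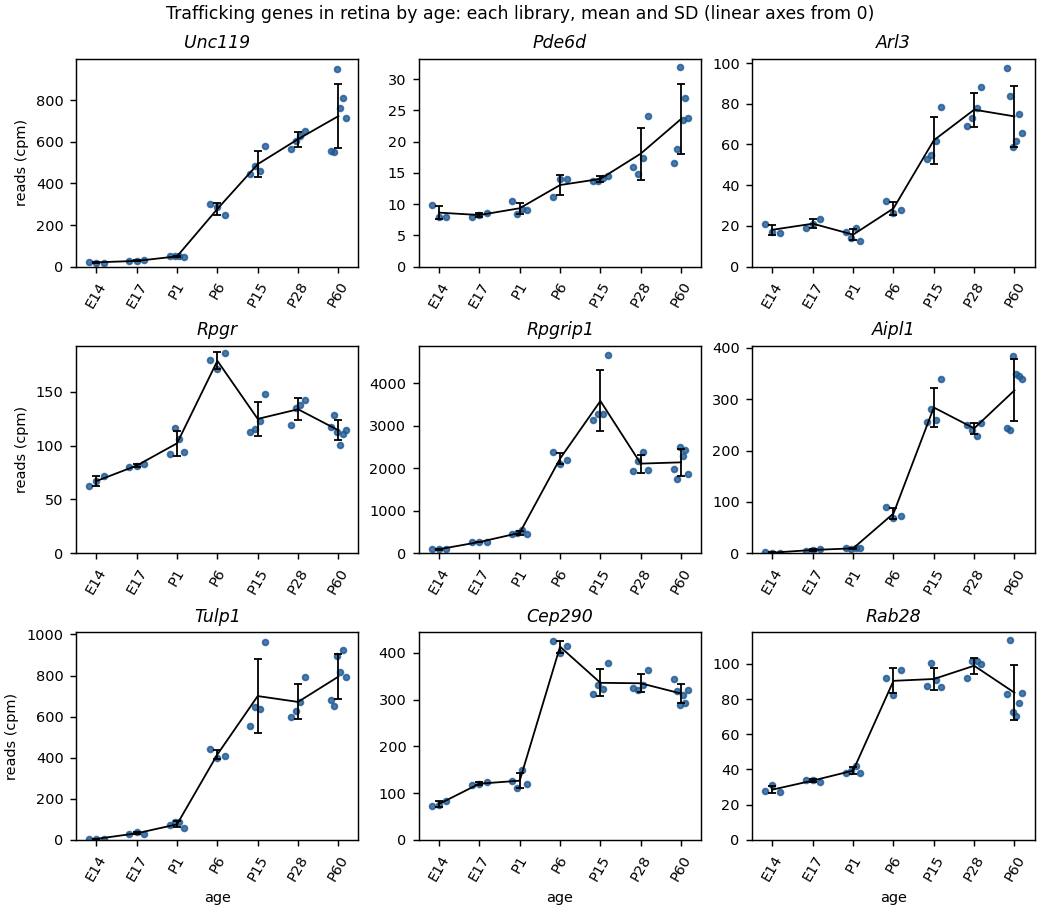
Level of each trafficking gene in cpm (vertical, linear from 0, a separate scale for each gene) at the 7 ages (horizontal). Points are libraries, and the line with bars gives the mean and SD of an age. Unc119, Aipl1 and Tulp1 have their highest mean at P60, Rpgrip1 at P15, and Rpgr and Cep290 at P6.

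The genes separated into 4 with large rises and 5 with small ones. The log2 fold change of mature over embryonic retina was 6.13 (SE 0.10) for Aipl1, 5.68 (SE 0.10) for Tulp1, 4.60 (SE 0.08) for Unc119 and 3.98 (SE 0.07) for Rpgrip1. The other 5 ran from 0.73 (SE 0.06) for Rpgr to 1.79 (SE 0.10) for Arl3. The only one under 2-fold was Rpgr, and Pde6d lay at the limit with 1.01 (SE 0.11). Without all P60 libraries the log2 fold change of Pde6d was 0.83, so that 7 genes passed the 2-fold limit.

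Unc119 encodes the carrier of acylated cargo. It was measured at 23.9, 19.6 and 18.1 cpm in the 3 libraries of E14 and at 25.3, 27.1 and 29.9 cpm at E17. The 4 libraries of P1 held 52.1, 49.2, 49.6 and 46.5 cpm, and those of P6 held 299, 286 and 247 cpm. These 4 ages did not overlap. At P15 the values were 444, 485, 461 and 581 cpm, and at P28 they were 568, 606, 628 and 652 cpm. At P60 they ran from 553 to 952 cpm with a median of 737 cpm. The P15, P28 and P60 ranges overlapped each neighbor, and the mean of 724 ± 154 cpm at P60 (SD, n = 6) was 35.3 times that of E14. The step from P1 to P6 was the largest, with a log2 fold change of 2.46 (SE 0.13, adjusted p = 2.25e-16).

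Pde6d encodes the carrier of prenylated cargo, and its name comes from its discovery as a subunit that copurified with PDE6. It stayed at 7.87 to 9.90 cpm in the 6 embryonic libraries and reached 8.45 to 10.5 cpm at P1. At P6 the libraries held 11.2, 14.0 and 14.1 cpm, and at P15 13.7, 13.7, 14.2 and 14.6 cpm. The only step that passed the test was that from P1 to P6 (log2 fold change 0.44, SE 0.17, adjusted p = 0.037). It no longer passed when P1 replicate 2, 3 or 4 or P6 replicate 2 or 3 was left out, with adjusted p of 0.062 to 0.13. At P28 the values were 16.0, 14.9, 17.3 and 24.1 cpm, and at P60 they ran from 16.7 to 32.0 cpm with a median of 23.6 cpm. The P28 and P60 ranges overlapped, and the spread at both ages (CV 23.0% and 23.4%) was wider than at P15 (3.16%).

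The balance of the carriers changed with age. Within a library, the log2 ratio of Pde6d to Unc119 was -1.39 ± 0.26 (SD, n = 6) in embryonic and -4.97 ± 0.16 (SD, n = 14) in mature retina. The 2 groups did not overlap (exact permutation test, two-sided, p = 2.6e-05, adjusted over 5 ratios to the same value). This is the smallest p that the 38760 permutations can give. The embryonic ratio of Pde6d to Unc119 pools -1.16 ± 0.06 at E14 and -1.62 ± 0.06 at E17 (SD, n = 3 at each age). Against its paralog Unc119b, which binds similar acyl cargo, Unc119 went from a log2 ratio of -0.23 ± 0.31 to 5.16 ± 0.26 (the same exact test and p). Here the embryonic value pools -0.47 ± 0.21 at E14 and 0.001 ± 0.16 at E17 (SD, n = 3 at each age). Unc119b itself fell, with 28.2 to 28.9 cpm in the E14 libraries and 10.4 to 17.1 cpm in those of P15, and its log2 fold change in mature retina was -0.79 (SE 0.09, adjusted p = 4.3e-09 by limma).

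**Figure D2:**
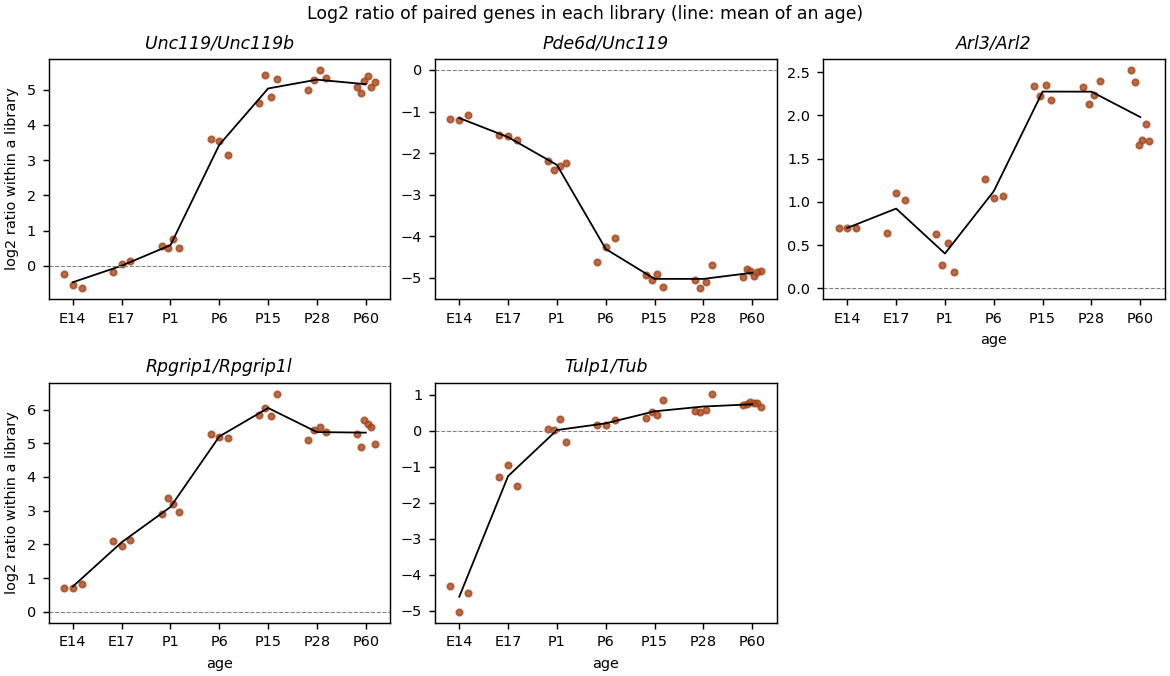
Log2 ratio of cpm between paired genes within each library (vertical, a separate scale for each pair) at the 7 ages (horizontal). Points are libraries, the solid line joins the means of the ages, and the dashed line marks equal cpm. Mature libraries lie above embryonic ones in 4 pairs and below them for Pde6d/Unc119.

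Arl3 encodes the GTPase that releases cargo from both carriers. Its values before P6 were low. They ran from 16.5 to 20.8 cpm at E14, 19.0 to 23.5 cpm at E17 and 12.8 to 18.9 cpm at P1. The E14 range overlapped both others, while every P1 library lay just below every E17 library. From E17 to P1 the log2 fold change was -0.41 (SE 0.15), which did not pass the test (limma, adjusted p = 0.098). It passed when only these ages were fitted (limma, adjusted p = 0.026). The libraries of P6 held 32.1, 26.2 and 27.6 cpm, and those of P15 53.0, 54.8, 61.9 and 78.5 cpm. Arl3 was the only one of the genes whose largest rise came from P6 to P15, with a log2 fold change of 1.08 (SE 0.15, adjusted p = 1.5e-06). The step from P1 to P6 was 0.84 (SE 0.15). At P28 the values were 69.0, 73.0, 77.9 and 88.4 cpm, and at P60 58.6 to 97.7 cpm with a median of 70.3 cpm. The 3 mature ages overlapped. The ratio to Arl2, a close relative, rose from a log2 value of 0.81 ± 0.20 in embryonic to 2.15 ± 0.29 in mature libraries (exact permutation test, p = 2.6e-05).

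Rab28 encodes a prenylated GTPase that is carried by PDE6D and is linked to shedding of the cone outer segment tip. It held 27.2 to 31.0 cpm at E14, 32.7 to 34.2 cpm at E17 and 38.0 to 42.1 cpm at P1. It reached its mature level at P6, with 92.0, 82.5 and 96.5 cpm (log2 fold change 1.18, SE 0.11, adjusted p = 1.3e-10). The next steps were 0.02 (95% confidence interval -0.20 to 0.24) and 0.11 (-0.09 to 0.32). The P60 libraries ran from 70.5 to 113.5 cpm with a median of 80.5 cpm.

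The cilium genes Rpgr and Cep290 peaked at P6. RPGR is a guanine nucleotide exchange factor homolog of the connecting cilium, and CEP290 is a component of the links between its microtubules and membrane. Rpgr was measured at 62.5, 67.0 and 72.0 cpm at E14 and at 80.6, 80.9 and 83.1 cpm at E17. The P1 libraries held 91.9 to 117 cpm, and those of P6 179, 171 and 187 cpm. All libraries of every other age were below those of P6. At P15 the values were 113, 116, 123 and 148 cpm, a fall by 0.52 on the log2 scale (SE 0.09, adjusted p = 5.2e-05), and later ages stayed between 101 and 143 cpm. Cep290 was measured at 72.4, 74.7 and 83.4 cpm at E14, at 118 to 123 cpm at E17 and at 111 to 150 cpm at P1. At P6 it reached 426, 400 and 414 cpm, a rise of 1.71 on the log2 scale (SE 0.08, adjusted p = 2.8e-17). At P15 it held 312, 331, 323 and 378 cpm, a fall by 0.30 (SE 0.08, adjusted p = 0.0050). No library outside P6 reached the lowest value of P6. At P28 and P60 Cep290 ran from 290 to 363 cpm.

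Rpgrip1 encodes the protein that tethers RPGR in the connecting cilium. It rose at every step up to P15 and was the only one of the genes with a fall past the test after it in the fit to all libraries. The libraries held 91.5, 89.7 and 102 cpm at E14, 269, 263 and 262 cpm at E17, and 444, 478, 551 and 443 cpm at P1. No age overlapped another up to this point. At P6 they held 2373, 2102 and 2205 cpm, and at P15 3127, 3266, 3285 and 4655 cpm. The highest of these was P15 replicate 4, which was the highest library of its age for 8 of the 9 genes and whose rod sum was 6578 cpm, against 6297 to 6507 cpm in the other 3 libraries. Such runs occurred elsewhere too, with P15 replicate 1 lowest for 8 genes and P28 replicate 4 highest for 7. The share of all features highest in P15 replicate 4 is not given here. At P28 the values of Rpgrip1 were 1935, 2163, 2386 and 1954 cpm, all below those of P15. This was a fall by 0.75 on the log2 scale (SE 0.11, adjusted p = 3.7e-05) and by 0.62 without P15 replicate 4, still past the test. At P60 the libraries ran from 1751 to 2507 cpm, with a median of 2136 cpm, and overlapped those of P6 and P28. The related gene Rpgrip1l, whose product sits at the base of many cilia, had its lowest mean at P28 (51.3 ± 3.45 cpm, SD, n = 4) and its highest at E17 (62.7 ± 4.17 cpm, SD, n = 3). The log2 ratio of Rpgrip1 to Rpgrip1l rose from 1.41 ± 0.72 in embryonic to 5.53 ± 0.43 in mature libraries (exact permutation test, p = 2.6e-05). The embryonic value pools 0.75 ± 0.06 at E14 and 2.06 ± 0.10 at E17 (SD, n = 3 at each age).

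Aipl1 encodes a chaperone needed for folding of the PDE6 enzyme in rods and cones. It showed the largest rise. The E14 libraries held 1.90, 0.844 and 0.842 cpm, the lowest being 8 reads, and those of E17 held 5.32, 6.35 and 7.56 cpm. At P1 the values were 10.8, 8.32, 9.61 and 9.58 cpm, and at P6 90.4, 69.0 and 72.9 cpm. None of these ages overlapped. The libraries of P15 held 255, 281, 260 and 339 cpm, those of P28 249, 241, 229 and 254 cpm, and those of P60 241 to 385 cpm with a median of 343 cpm. The steps from P1 to P6 (2.89, SE 0.16, adjusted p = 4.2e-16) and from P6 to P15 (1.86, SE 0.16, adjusted p = 4.4e-11) were both over 2-fold. That from E14 to E17 (1.78, SE 0.17, limma, adjusted p = 1.2e-09) was over 2-fold as well.

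Tulp1 encodes a photoreceptor protein involved in moving proteins from the inner to the outer segment. Its largest rise came earliest. It was measured at 6.10, 3.38 and 5.37 cpm at E14 and at 31.0, 36.8 and 28.6 cpm at E17. This rise of 2.50 on the log2 scale (SE 0.17, adjusted p = 1.3e-12) was its largest, although that from P1 to P6 was nearly the same (2.46, SE 0.16). The P1 libraries held 72.2, 88.7, 85.7 and 56.7 cpm, and those of P6 440, 398 and 409 cpm. Up to P6 no age overlapped another. Mature libraries ran from 554 to 962 cpm, and the P15, P28 and P60 ranges overlapped. Its relative Tub, the founding tubby gene, took another course, with means of 141 cpm at E14, 74.3 cpm at P1, 362 cpm at P6 and 478 cpm at P60. Tulp1 was thus at a log2 ratio to Tub of -2.94 ± 1.86 in embryonic and 0.66 ± 0.18 in mature libraries (exact permutation test, p = 2.6e-05). The embryonic value pools -4.61 ± 0.37 at E14 and -1.26 ± 0.29 at E17 (SD, n = 3 at each age). At P1 the mean log2 ratio was already 0.01.

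The rises were not spread evenly over the 6 steps. From E14 to E17, 4 genes were higher (Tulp1, Aipl1, Rpgrip1 and Cep290), against 7.56% of all features, and 3 of these rose at least 2-fold, against 2.90%. Over all features 2400 were higher and 959 lower in this step by limma, and 2483 and 1594 by DESeq2. The count of 4 was 7 when only these ages were fitted, with Unc119, Rpgr and Rab28 added, and 6 at a mean of at least 10 cpm, with Unc119 and Rpgr added. It was likewise 6 without P15 replicate 4. The shares of all features called in these alternative fits are not given here. From E17 to P1, 5 were higher, against 5.77%, and 1 of these, Tulp1, rose at least 2-fold, against 1.23%. These 5 were Tulp1, Rpgrip1, Unc119, Aipl1 and Rpgr. The calls of Aipl1 (adjusted p = 0.030) and Rpgr (adjusted p = 0.028) were the weakest, and each was lost under several alternatives. Rpgr was lost without any 1 of the E17 libraries or without P1 replicate 2 or 3 (adjusted p of 0.072 to 0.12), and Aipl1 without E17 replicate 1 or 2 or P1 replicate 1, 3 or 4 (0.059 to 0.21). The count was 3 without E17 replicate 1, E17 replicate 2 or P1 replicate 3, again with no share of all features given. From P1 to P6 all 9 rose, against 18.0% of all features, and 6 of them at least 2-fold, against 6.30%. This step was the largest for 7 of the 9 genes. Between the same ages the rod sum went from 148 to 178 cpm up to 1633 to 1869 cpm, and the progenitor sum fell from 4636 to 5032 cpm down to 543 to 610 cpm. The cone sum went from 47.9 to 67.4 cpm up to 107 to 122 cpm, the RPE sum from 5.29 to 10.1 cpm up to 18.8 to 29.0 cpm, and the blood sum from 10.7 to 15.5 cpm up to 39.6 to 50.3 cpm. The part of any of these in the rises was not tested.

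**Figure D3:**
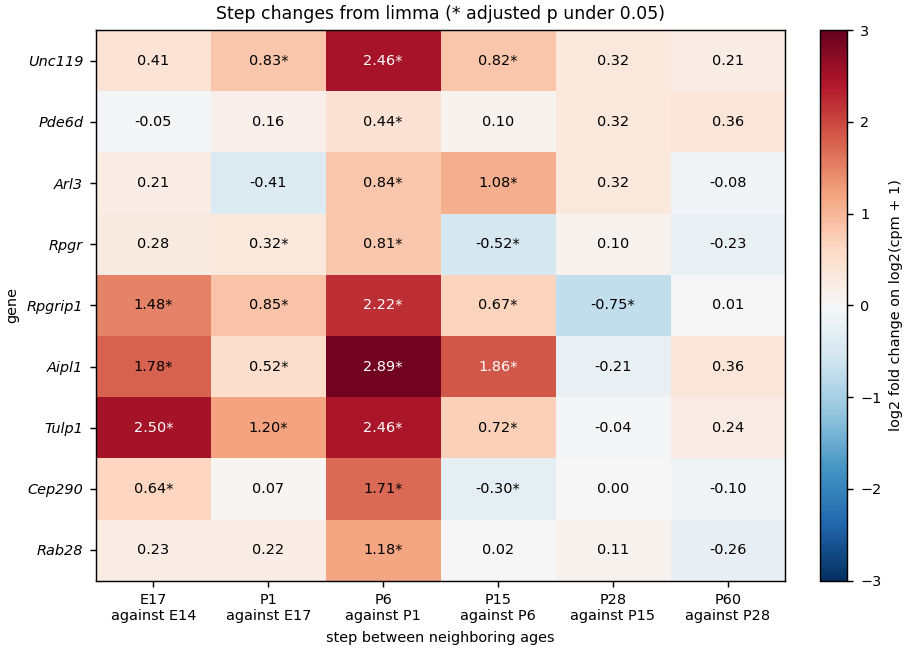
Log2 fold change on log2(cpm + 1) of each trafficking gene (vertical) at the 6 steps between neighboring ages (horizontal), from the fit to all 27 libraries. Red marks a rise, blue a fall, and an asterisk an adjusted p under 0.05. The column of P6 against P1 holds a rise past the test for all 9 genes, and the last column holds none.

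From P6 to P15 the genes went different ways. Higher at P15 were 5 of them (Aipl1, Arl3, Unc119, Tulp1 and Rpgrip1), against 14.4% of all features, and 2 were lower (Rpgr and Cep290), against 19.0%. At least 2-fold rises were found for Aipl1 and Arl3, against 4.74% of all features, and for Aipl1 alone without P15 replicate 4. From P15 to P28 none was higher, against 1.14% of all features, and 1, Rpgrip1, was lower, against 1.58%. At an unadjusted p under 0.05 there were 4 in this step. The share of all features at an unadjusted p is not given here for this step or the next. EdgeR and DESeq2 on the recovered reads called Rpgrip1 only. From P28 to P60 limma called 0 genes, against 4.80% of all features higher and 8.11% lower. At an unadjusted p under 0.05 there were 4 (Aipl1, Pde6d, Rab28 and Rpgr). EdgeR called 1 of them, Aipl1, and DESeq2 called 2, Aipl1 and Pde6d. Over all features the direction of this last step depended on the method, with 1524 higher and 2576 lower by limma but 2118 higher and 1363 lower by edgeR. These methods differ in scaling and in model, and the part of each was not tested.

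The P60 libraries differed among themselves for these genes. Across features, replicates 1, 2 and 6 had a higher mean Pearson r with the P28 libraries (0.985, 0.981 and 0.975) than with the other P60 libraries (0.965, 0.962 and 0.973). Unc119 was at 555 and 553 cpm in replicates 1 and 2 and at 713 to 952 cpm in the other four. Aipl1 was at 244 and 241 cpm in these and at 339 to 385 cpm in the others, and Pde6d at 16.7 and 18.9 cpm against 23.4 to 32.0 cpm. Replicates 1 and 2 thus lay within the P28 range for Aipl1 and Pde6d and just below it for Unc119. Tulp1 was also lower in replicates 1 and 2, at 682 and 654 cpm against 794 to 926 cpm in the others. Arl3 went the other way, at 97.7 and 83.9 cpm in replicates 1 and 2 and 58.6 to 75.1 cpm in the others. So did Rpgr, at 118 and 129 cpm against 101 to 115 cpm. This split of the libraries was read from these same values, and the share of all features that show it was not counted. Without replicate 1, limma called 5 genes from P28 to P60, with Aipl1, Pde6d and Unc119 higher and Rab28 and Rpgr lower, and without replicate 2 it called the same 5. The shares of all features called in these fits are not given here, so these counts cannot be set against them. The rod sum was 8614 and 7947 cpm in replicates 1 and 2 and 8273 to 9237 cpm in the others, which overlap. The cone sum did not overlap, at 491 and 488 cpm in replicates 1 and 2 and 543 to 620 cpm in the others. The RPE sum was highest in replicate 2 (55.5 cpm, with 13.4 to 31.5 cpm in the others), and the blood sum in replicate 1 (43.3 cpm, with 19.9 to 25.4 cpm in the others). The part of the rod, cone, RPE or blood content, of pooling or of single mice in these differences was not tested.

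**Figure D4:**
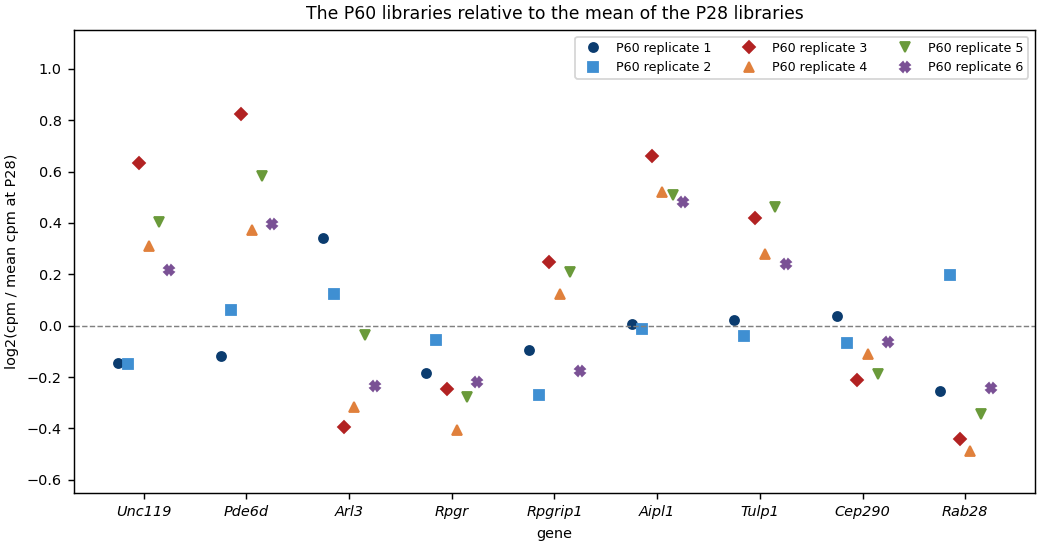
Log2 of each P60 library's cpm over the mean cpm of the 4 P28 libraries (vertical) for each trafficking gene (horizontal). Each symbol is a library, and the dashed line marks the P28 mean. Replicates 1 and 2 lie below the other four for Unc119, Pde6d, Aipl1 and Tulp1 and above them for Arl3 and Rpgr.

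To compare levels between genes, cpm was divided by the length of all annotated exons in kb (cpm per kb). At E14, Rpgr (9.27 ± 0.65), Unc119 (8.39 ± 1.23), Rpgrip1 (7.76 ± 0.54), Arl3 (7.27 ± 0.94), Cep290 (6.61 ± 0.50), Rab28 (6.31 ± 0.47) and Pde6d (3.97 ± 0.50) lay within a narrow range (SD, n = 3). Tulp1 (0.743 ± 0.21) and Aipl1 (0.379 ± 0.19) were far below them. By P60 the order had changed. Unc119 led with 296 ± 63.0 cpm per kb (SD, n = 6), followed by Rpgrip1 (176 ± 26.1), Tulp1 (119 ± 16.5) and Aipl1 (101 ± 19.0). The remaining 5 ran from 10.8 ± 2.54 for Pde6d to 29.6 ± 6.00 for Arl3. Tulp1 and Aipl1, the lowest at E14, were thus above all of these 5 at P60. Pde6d, the carrier of prenylated cargo, had the lowest mean. The annotation behind the deposited values is not given in the sources used here, and the lengths are those of GENCODE M21 on GRCm38. They span all annotated transcripts of a gene, with 12152 bases over 19 transcripts for Rpgrip1 and 2448 over 7 for Unc119. The order between genes therefore depends on the annotation.

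**Figure D5:**
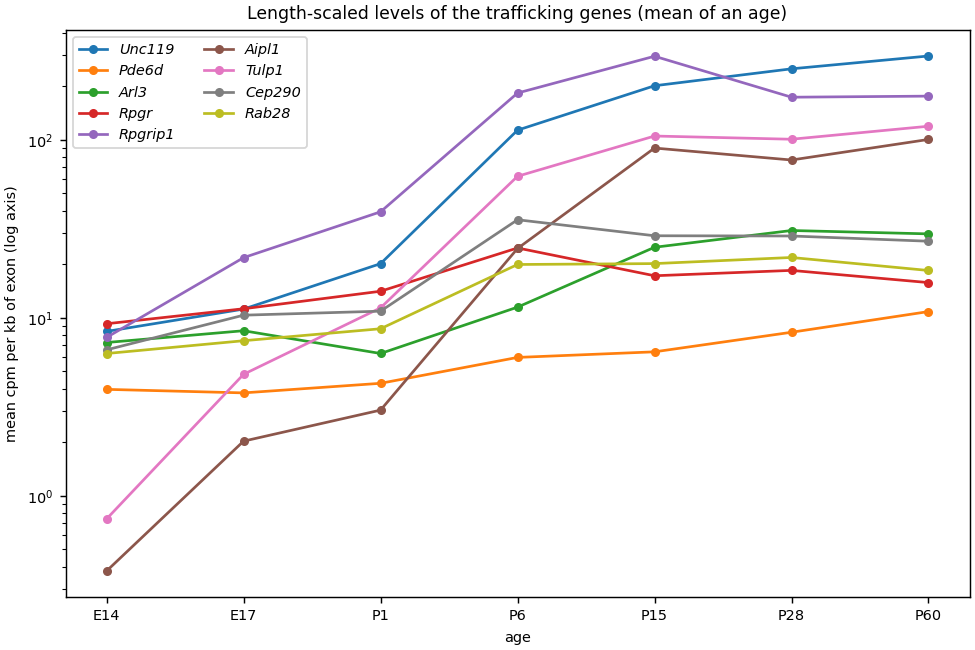
Mean cpm per kb of annotated exon (vertical, log axis) of the trafficking genes at the 7 ages (horizontal). Each line is a gene. At E14, 7 genes lie between 3.97 and 9.27 cpm per kb with Tulp1 and Aipl1 below them, and at P60 Unc119, Rpgrip1, Tulp1 and Aipl1 lie above the other five.

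The promoters of the genes were read for short motifs of photoreceptor transcription factors. The 250 bases before a RefSeq gene start (GRCm38) are shown for the 4 genes with the large rises 5′ to 3′ on the gene's strand, in lower case, with matches in capitals to the core motif of the homeodomain factor Crx (TAATCC) or of the leucine zipper factor Nrl (TGCTGA), on either strand. The motifs do not overlap each other in these windows. Unc119 has 3 RefSeq starts, of which the first and the one that holds a Crx match are shown.
Aipl1, chr11:72037510-72037759, minus strand: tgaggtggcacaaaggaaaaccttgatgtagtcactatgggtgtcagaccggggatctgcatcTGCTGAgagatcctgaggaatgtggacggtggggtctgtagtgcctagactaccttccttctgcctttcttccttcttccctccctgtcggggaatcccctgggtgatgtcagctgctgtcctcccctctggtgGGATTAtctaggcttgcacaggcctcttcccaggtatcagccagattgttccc
Rpgrip1, chr14:52110653-52110902, plus strand: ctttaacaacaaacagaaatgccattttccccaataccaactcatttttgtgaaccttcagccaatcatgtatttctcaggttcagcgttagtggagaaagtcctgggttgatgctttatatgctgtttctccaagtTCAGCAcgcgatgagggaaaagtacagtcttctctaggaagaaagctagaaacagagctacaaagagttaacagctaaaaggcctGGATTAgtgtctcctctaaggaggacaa
Tulp1, chr17:28365217-28365466, minus strand: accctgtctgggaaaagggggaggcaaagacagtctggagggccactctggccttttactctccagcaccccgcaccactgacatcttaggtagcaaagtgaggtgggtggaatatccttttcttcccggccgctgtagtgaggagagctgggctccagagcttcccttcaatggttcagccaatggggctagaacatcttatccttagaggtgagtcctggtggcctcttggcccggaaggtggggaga
Unc119, first start, chr11:78343245-78343494, plus strand: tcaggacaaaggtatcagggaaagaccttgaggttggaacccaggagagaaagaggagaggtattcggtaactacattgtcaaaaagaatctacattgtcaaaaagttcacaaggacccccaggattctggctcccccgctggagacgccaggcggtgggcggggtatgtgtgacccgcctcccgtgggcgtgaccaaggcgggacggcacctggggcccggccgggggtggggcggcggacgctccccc
Unc119, internal start, chr11:78345334-78345583, plus strand: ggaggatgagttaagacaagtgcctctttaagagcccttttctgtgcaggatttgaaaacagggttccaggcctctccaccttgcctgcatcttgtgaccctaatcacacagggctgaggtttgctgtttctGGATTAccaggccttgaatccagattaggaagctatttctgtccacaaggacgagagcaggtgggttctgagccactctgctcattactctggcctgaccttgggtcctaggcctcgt
In windows of 300 bases, which also hold the 50 bases from the start on, the Crx core was found for Aipl1, Rpgrip1 and Unc119. Aipl1 held it at 53 to 48 bases before the start and again 10 to 15 bases after it, Rpgrip1 at 28 to 23 bases before the start, and Unc119 in the window of the internal start at 118 to 113 bases before it. The Nrl core was also found for Aipl1, Rpgrip1 and Unc119, for the last in the window of its remaining start, which is not among the sequences shown. Tulp1, which rose as steeply, held neither. Of all 32851 windows, 7.06% held the Crx core and 19.5% the Nrl core, while of the 12 windows of the 9 genes 3 and 3 did. The X-box of the ciliary RFX factors (searched on both strands) was in 4.62% of all windows and in 0 of these 12. A match describes letters in a window and not binding, and its absence says nothing of the factor.

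The genes most like each member were sought among 10991 genes with a Gene ID and a mean of at least 10 cpm, by Pearson r of log2(cpm + 1) over the 27 libraries, which share age. These r values describe profiles that mostly follow age and carry no test. For Unc119 they were Cacna1f (r = 0.997), Slc17a7 and Grk1, and for Tulp1 Mak (r = 0.996), Lactbl1 and Rbp3. For Aipl1 they were Sncb (r = 0.997), Eno2 and Dnm1, and for Rpgrip1 Plekhb1 (r = 0.990), Slc1a7 and Hs3st3b1. Cep290 was most like Dmd (r = 0.986), Snrk and Dmxl2, and Rab28 most like Elovl4 (r = 0.985), Ttc39b and Mbnl1. Lower values were reached by Arl3 with Clu (r = 0.974), Tmem136 and Ikbip, by Pde6d with Tomm40l (r = 0.959), Kdm3b and Dtnb, and by Rpgr with Vopp1 (r = 0.943), 8030462N17Rik and Lifr. Among the 9 genes themselves, Unc119 and Aipl1 were the closest (r = 0.990), and Pde6d and Rpgr the least alike (r = 0.476).

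Around these genes, a list of 16 partners and paralogs moved both ways. In mature against embryonic retina 8 were higher and 8 lower, 4 of them higher by at least 2-fold and 0 lower by as much, with a median log2 fold change of 0.12. Of all features 35.0% were higher and 40.4% lower, 14.9% and 16.1% by at least 2-fold. Rd3, a guanylate cyclase partner that helps the cyclase leave the endoplasmic reticulum, rose most (5.63, SE 0.09), followed by Tub (2.10, SE 0.06). The largest falls were those of Rp2 (-0.80, SE 0.12), the GTPase-activating protein of ARL3, and of Unc119b (-0.79). From P1 to P6 7 were higher and 3 lower, against 18.0% and 20.4% of all features. From P6 to P15 1 was higher, Tub, and 5 lower, against 14.4% and 19.0%. Rp2, which switches ARL3 off, held 24.1 to 29.7 cpm in the E14 libraries and 10.8 to 19.9 cpm in those of P60, while Arl3 rose. It is X-linked like Rpgr.

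Of 12 cargo genes, 11 were higher in mature retina and 0 lower, 10 of them by at least 2-fold, against 35.0% of all features higher, 40.4% lower and 14.9% higher by at least 2-fold, with a median log2 fold change of 7.95. Pde6a, a prenylated PDE6 subunit of rods, went from 2 to 7 reads in the embryonic libraries to a log2 fold change of 10.1 (SE 0.11), and Gnat1, the acylated rod transducin alpha subunit, reached 9.97 (SE 0.13). Inpp5e, a cargo of cilia in general, did not pass the test (-0.09, SE 0.08). From P1 to P6 9 cargo genes were higher and 0 lower, against 18.0% and 20.4% of all features, and from P6 to P15 10 were higher and 1, Gngt2, lower, against 14.4% and 19.0%. Gnat1 and Gnat2 are also rod and cone markers. Unc119 stood at 38.3% of its highest mean at P6, with 277 ± 27.1 cpm (SD, n = 3), when Gnat1 was at 75.0 ± 26.3 cpm (SD, n = 3), and Gnat1 was at 3991 ± 111 cpm at P15 (SD, n = 4). Cargo genes differed in this. The means at P6 and P60 were 136 and 1937 cpm for Pde6a, 571 and 1556 cpm for Pde6b, and 12.5 and 51.4 cpm for Gnat2. Whether Unc119 rose ahead of its cargo was not tested.

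The 12 genes of lipid modification, which attach or trim the anchors, gave 3 higher and 4 lower in mature retina, 1 and 2 of them by at least 2-fold, with a median of -0.02. These counts lie near or below the shares of all features (35.0% and 40.4%, and 14.9% and 16.1% by at least 2-fold). Icmt, the methyltransferase that finishes prenylated C termini, rose most (3.43, SE 0.05), from 21.7 cpm at E14 to 278 cpm at P60. It shares 103 exonic bases with Rnf207 on the opposite strand. Of the myristoyl transferases, Nmt1 rose slightly (0.40, SE 0.06) while Nmt2 fell by 1.63 on the log2 scale (SE 0.07). The largest fall was that of Chml, a Rab escort protein, by 1.92 (SE 0.13). From P1 to P6 4 of these genes were higher and 2 lower, against 18.0% and 20.4% of all features, and from P6 to P15 1 was higher, Icmt, and 1 lower, Nmt2, against 14.4% and 19.0%.

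In GENCODE M21 (GRCm38) Unc119 lies on chromosome 11 from 78343482 to 78349164 (plus strand) and Aipl1 on the same chromosome from 72027963 to 72037509 (minus). Rpgrip1 lies on chromosome 14 from 52110704 to 52163546 (plus) and Tulp1 on chromosome 17 from 28351515 to 28365222 (minus). Exons of 6 of the 9 genes overlap no other gene. Rpgrip1 shares 1057 exonic bases with Supt16 on the opposite strand, Cep290 shares 881 with 4930430F08Rik on the opposite strand, and Rpgr shares 208 with Srpx on its own strand. The sources used here do not say whether counting used the strand, and reads of such pairs may have been exchanged. Supt16 was highest at P15 like Rpgrip1, with 512 to 574 cpm in the P15 libraries against 362 to 404 cpm in those of P28. Between the same ages the mean of Rpgrip1 went from 3583 to 2109 cpm. Srpx was at most 6.30 cpm in any library, and 4930430F08Rik had means of 20.2 cpm at E14 and 46.6 cpm at P28. Among the other named genes, Rd3 shares 1452 exonic bases with the antisense gene Gm26670, Tub shares 1056 with Gm26599 and 149 with Ric3, Chml shares 461 with Opn3, Nmt1 shares 144 with Dcakd and Arl2 shares 51 with Batf2.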

How the data were processed

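Total RNA of whole mouse retina was made into libraries with a SMARTer total RNA kit and sequenced as single-end reads. Per the labels, processing used STAR and the build mm10 (GRCm38). The authors deposited CPM values (reads scaled to the total of the library, written cpm) for 38168 features. The annotation and the use of strand are not given in the sources used here. Every value was a whole number of reads once divided by the smallest step of its library (100%, within 0.05 reads), and these recovered reads gave the depth. Totals were 7077781 to 11332323 reads, with a median of 7969873. In E14 replicate 1 the step could not be judged automatically.

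The rows of the 9 genes were found by symbol. Limma 3.58.1 (R 4.3.3) was run with its trend option on log2(CPM + 1) of all 27 libraries, the design being the 7 ages. The 31760 features reaching 1 CPM in 3 or more libraries entered. P-values are two-sided and were adjusted over all of these by the Benjamini-Hochberg method, and a gene was called at an adjusted p under 0.05, with counts also given at a log2 fold change of at least 1. Mature retina was the mean of P15, P28 and P60, and embryonic retina the mean of E14 and E17. This scale compresses the changes of genes with few reads. Ratios within a library were compared by an exact permutation test over libraries, coded with numpy 2.4.6. It pooled the libraries of E14 and E17, and those of P15, P28 and P60, so differences between these ages enter the spread. Confidence intervals used t quantiles from scipy 1.17.1. The labels do not say that libraries of an age came from separate animals throughout, and p-values measure the spread between these libraries. Fold limits and read numbers cover counting error only.

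Genes named were the 9 members, the 2 largest rises and 2 largest falls among called genes of 3 lists (partners and paralogs, cargo, lipid modification), the partners of the 5 ratios and the 3 most similar genes of each member. A few genes of the set and of the lists are not reported here and were left out of all counts of members and lists. Members, lists and motifs were chosen with earlier results of these data known. Beyond this rule, Inpp5e, Pde6b, Gnat2 and the overlapping genes were named after their values were seen. Promoters were taken from RefSeq (GRCm38.p6, a window for all 9 genes), coordinates and exon lengths from GENCODE M21 (9 of 9 matched by Gene ID). Alternatives were median-of-ratios scaling, a block for the replicate number, a pseudocount of 0.1, no filter, a filter at a mean of 10 CPM, edgeR 4.0.16 and DESeq2 1.42.0 on recovered reads, the compared ages only, summed entries of a symbol, mature retina without P60, no minimum fold change, and each library left out in turn. EdgeR without E14 replicate 1 was added after seeing the data. Methods were tested on simulated data. Human, organoid, isolated cone and knockout samples were not analyzed here.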

Additional observations from a re-analysis of the deposited data

Results flagged for a closer look

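Among 56 sets of 4 to 6 libraries tested for a single library far from the rest (36 of a gene at an age, 20 of a ratio at an age), 4 held one, and chance marks about 1 in 20 such sets. Rpgrip1 in P15 replicate 4 was at 4655 cpm, with the other 3 libraries of P15 at 3127 to 3285 cpm. Rab28 in P28 replicate 1 was at 92.2 cpm, below the other 3 libraries of P28 at 100.2 to 101.7 cpm. Rab28 in P60 replicate 2 was at 113.5 cpm, above the other 5 libraries of P60 at 70.5 to 83.7 cpm. The log2 ratio of Tulp1 to Tub in P28 replicate 4 was 1.03, with the other 3 libraries at 0.52 to 0.58.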

How the results depend on the processing

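Of 2340 comparisons of a gene's step or contrast with an alternative, 2263 kept their direction and their side of the threshold, 23 lost the call, 34 gained it and 20 changed sign. The 20 belonged to 6 steps near 0, and none was called either way. With 1 library left out, these steps ran from -0.10 to 0.038 for Pde6d from E14 to E17, -0.018 to 0.13 for Cep290 from E17 to P1, -0.046 to 0.066 for Rab28 from P6 to P15, -0.14 to 0.13 for Tulp1 and -0.041 to 0.056 for Cep290 from P15 to P28, and -0.036 to 0.073 for Rpgrip1 from P28 to P60. That of Pde6d was 0.014 by edgeR without E14 replicate 1, and that of Cep290 from P15 to P28 was 0.014 with median-of-ratios scaling, 0.012 by edgeR, 0.012 by DESeq2 and 0.013 by edgeR without E14 replicate 1. All 9 genes were higher in mature retina under every alternative run, and 7 or 8 of them by at least 2-fold (9 with no minimum fold change). EdgeR moved the median log2 fold change of all features in mature against embryonic retina by 0.102, and every one of the 9 rises was larger than this shift. The call of Aipl1 from E17 to P1 was lost with a pseudocount of 0.1 (log2 fold change 0.58, adjusted p = 0.056), median-of-ratios scaling (0.49, adjusted p = 0.075), edgeR (0.55, adjusted p = 0.12, and 0.10 without E14 replicate 1) and DESeq2 (0.55, adjusted p = 0.083), and that of Rpgr with median-of-ratios scaling (0.29, adjusted p = 0.055) and with edgeR without E14 replicate 1 (0.29, adjusted p = 0.052). The cause was not tested. With no minimum fold change, the members changed numbered 5 higher from E17 to P1, 5 higher and 2 lower from P6 to P15 and 1 lower from P15 to P28. The partners then numbered 8 higher and 8 lower in mature retina, 7 and 3 from P1 to P6 and 1 and 5 from P6 to P15. The genes of lipid modification then numbered 3 and 4, 4 and 2, and 1 and 1. The fall of Gngt2 from P6 to P15 was the only one of at least 2-fold among cargo genes, and the count was 0 at a mean CPM of at least 10, where fewer genes are tested, and 0 without P15 replicate 2. With 1 library left out, members at least 2-fold higher from P6 to P15 numbered 1 to 2, cargo genes at least 2-fold lower in that step 0 to 1, and partners at least 2-fold higher from P1 to P6 3 to 4. Fitting the compared ages only called 19 features higher and 4 lower of all features from P28 to P60.

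The replicate numbers do not pair the libraries. Of 69 pairs with the same number, 3 correlated over 0.1 in their deviations from the age means (range -0.13 to 0.17), and 7 of 27 libraries correlated best with their own number. With the replicate number as a block, 7 members rose at least 2-fold in mature retina, Aipl1 lost its call from E17 to P1 (0.47, adjusted p = 0.053), and the other counts of members called, or called at 2-fold, did not change. At an unadjusted p under 0.05 there were then 7 members rather than 6 from E17 to P1 and 3 rather than 4 from P28 to P60. The shares of all features at an unadjusted p are not given here. Depth limits Aipl1 and Tulp1 at E14, where libraries held as few as 8 and 32 reads.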
